A study of Mus musculus with 6 samples.

Results

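Ion channel genes were followed in bulk RNA sequencing of cultured mouse macrophages raised from bone marrow precursors (BMDMs). Members were the rows of the count table named for potassium channels and their auxiliary subunits (Kcn), chloride channels (Clcn), TRPC, TRPM and TRPV channels, P2X receptors, voltage-gated sodium (Scn) and calcium (Cacn) channels, HCN channels, Hvcn1, Piezo channels and Orai channels. The table held 16519 genes, of which 157 matched these names, and the 63 with 60 or more counts summed over the 6 libraries were used. Members were thus selected on their name and on that summed count, and the set was proposed because Kcna2 was already known to be low in KO. The KO group held 3 libraries from Trmt61a f/f mice that also carried LysmCre (Trmt61a f/f LysmCre), and the WT group held 3 libraries from Trmt61a f/f mice without it. Trmt61a supplies the catalytic part of the tRNA methyltransferase that makes N1-methyladenosine, and LysmCre drives Cre from the Lyz2 locus in myeloid cells. Cre was present in the KO group only, so the loss of Trmt61a and the presence of Cre cannot be told apart. The labels name no stimulus, age or sex, and do not say whether the replicates are separate mice or cultures, so p-values measure only how these libraries vary, which may be technical.

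Ion channels are membrane proteins that let selected ions pass when a voltage, a ligand, calcium or mechanical force opens them. In macrophages, potassium channels set the membrane potential and carry the potassium efflux that precedes activation of the NLRP3 inflammasome, ATP-gated P2X receptors admit cations, and Orai channels refill calcium stores. Chloride exchangers of the CLC family and the proton channel Hvcn1 serve endosomes, lysosomes and the phagosome.

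The targeted gene was lower in each library labelled KO. Trmt61a stood at 0.530, 0.755 and 0.539 CPM (counts per 1e6 counts, with library sizes scaled by TMM) in KO 1 to KO 3 and at 4.96, 3.89 and 5.06 CPM in WT 1 to WT 3 (log2 fold change -2.92, edgeR adjusted p = 0.00219). Libraries held between 37021855 and 41033179 counts, and 3 counts, the upper limit that a count of 0 allows, corresponded to 0.0730 to 0.0813 CPM. Macrophage genes were abundant in each library, with Mertk at 281 to 337 CPM and Cd14 at 331 to 408 CPM. Of the 8 macrophage markers 1 passed between genotypes, against 0.0317% of all tested genes. That was Lyz2, which carries the Cre, with a mean of 9503 CPM in KO and 18874 CPM in WT (log2 fold change -0.99, edgeR adjusted p = 0.00735). The other macrophage markers had log2 fold changes from -0.09 to 0.03. With Lyz2 as the most abundant, the 8 markers summed to 18744 to 22382 CPM in KO and 27752 to 32412 CPM in WT, without overlap.

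Most of the channel genes were scarce. The 63 genes together took 0.290% of all counts, and the 94 genes below the minimum took 0.000493%. Of those 94, 53 had fewer than 10 counts in all 6 libraries together. Just inside the minimum lay Kcng3 with 61 counts, Cacna1e with 64 and P2rx6 with 66, and just outside lay Kcnq3 with 58 and Trpc1 with 57. Of the pore-forming voltage-gated potassium channel genes, 8 of 31 were kept. All 3 Orai genes were kept, as were 5 of 7 P2X genes and 6 of 8 CLC genes. Because the minimum applies to the sum over both genotypes, these levels are a description of what was chosen.

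Per kilobase of exon, P2rx4 was the most abundant channel gene. It encodes an ATP-gated cation channel that resides largely in lysosomes, and its level was 61.5 CPM per kilobase, with a range of 59.2 to 64.5 over the 6 libraries. Clcn7, the lysosomal chloride-proton exchanger, followed at 46.7, then Hvcn1, the voltage-gated proton channel, at 43.5 and P2rx7, the ATP receptor known for potassium efflux, at 41.6 CPM per kilobase. The ranges of these last 3 overlapped, so their order did not exceed the spread between libraries, whereas all of P2rx4 lay above them. Piezo1, which opens on membrane stretch, stood at 29.4 and Trpv2 at 27.9 CPM per kilobase, with overlapping ranges. Among potassium channel genes the auxiliary subunit Kcnab2 led at 24.3, ahead of the pore-forming Kcnk6 at 19.3 CPM per kilobase, and Kcnn4 reached at most 18.5. Kcna2 came far lower, in place 36 of 63, at 0.454 CPM per kilobase. Exon lengths were the union of all GENCODE exons of a gene, so a gene with long isoforms that these cells do not use is set too low.

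**Figure D1:**
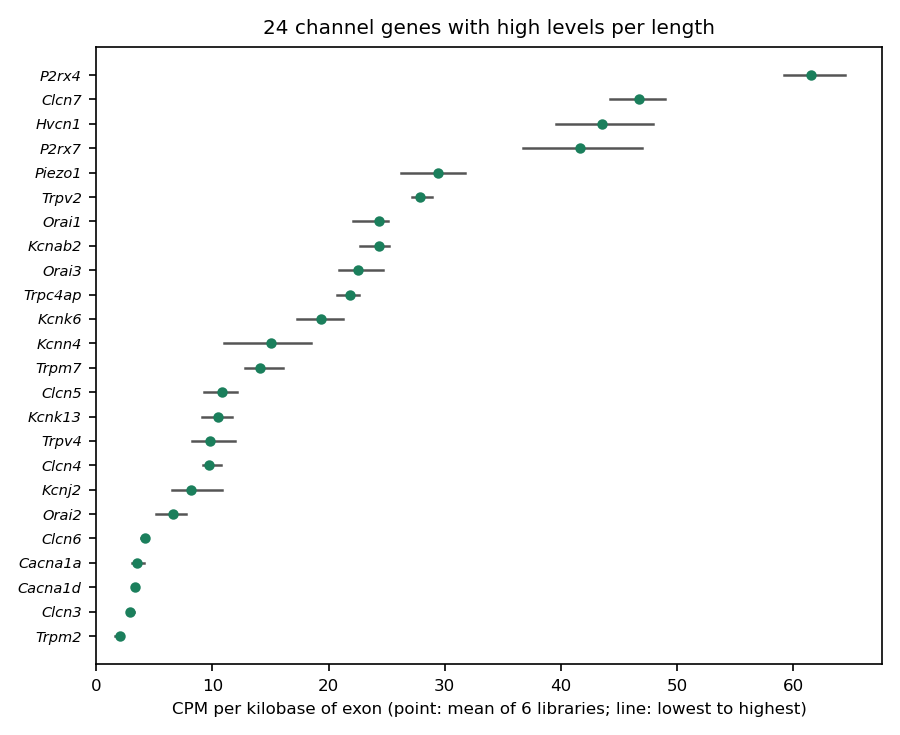
Level per kilobase of exon for 24 channel genes high on that scale, with the mean of the 6 libraries as a point and the lowest and highest library as the ends of a line. P2rx4 at 61.5 CPM per kilobase lies above the others, and Clcn7, Hvcn1 and P2rx7 overlap between 36.7 and 49.0.

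The main comparison asked whether channel families differ between KO and WT macrophages. No channel gene passed among the 61 that could be tested (quasi-likelihood test of edgeR with a threshold of 0.05 on the p adjusted over 12605 genes), against 0.0317% of all tested genes. At an unadjusted p under 0.05 there were 4 channel genes, against 3.1% of all tested genes. Kcna2 and Kcnj10 had lower values in KO, where 1.64% of all tested genes did so, and Trpc6 and Cacna1c had higher values, where 1.46% did so. The share of the members was 6.56%, which rests on these 4 genes. DESeq2 called 1 channel gene, Kcna2, against 0.127% of all genes with an adjusted p in that test. With limma voom 0 channel genes passed, against 0.0317% of all tested genes. The values of Kcna2 below are a description, since it was known to be low when the members were proposed.

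The channel genes as a group were centred on no difference. Of 61 tested, 29 had a log2 fold change above 0 and 32 below, and their quartiles were -0.16 and 0.08, where those of all 12605 genes were -0.07 and 0.07. Spread was wider at lower levels, and below 10 CPM it was also wider for channel genes than for all tested genes. The median absolute log2 fold change was 0.05 for both at 10 CPM or more. It was 0.21 against 0.15 between 1 and 10 CPM, and 0.43 against 0.39 under 1 CPM. Of the 26 channel genes at 10 CPM or more, each log2 fold change lay between -0.18 and 0.16, and the 95% interval of 24 stayed inside 1.5-fold (92.3%, against 96.1% of all tested genes at that level). Between 1 and 10 CPM this held for 3 of 18 channel genes (16.7%, against 34.6% of all tested genes at that level). Of the 17 below 1 CPM, 0 had an interval inside 2-fold, against 1.43% of all tested genes at that level. Each of these 17 intervals thus reached beyond 2-fold on at least 1 side.

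**Figure D2:**
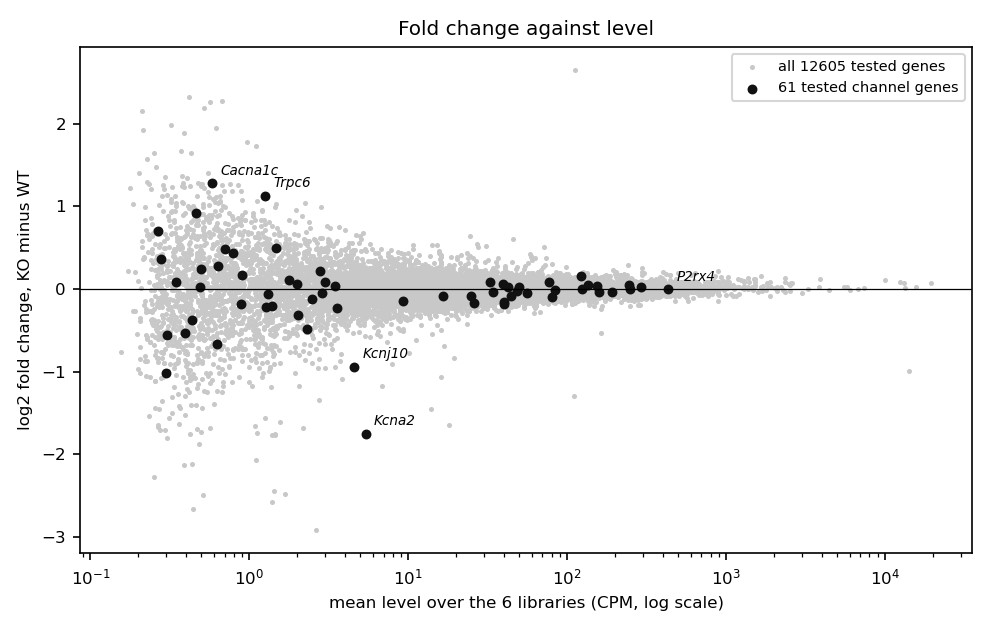
Log2 fold change of KO minus WT against the mean level on a log axis, for all 12605 tested genes in grey and the 61 tested channel genes in black. The channel genes at 10 CPM or more lie between -0.18 and 0.16, and Kcna2 at -1.75 and Kcnj10 at -0.94 are the lowest of those between 1 and 10 CPM.

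Summed by family, 14 of the 15 groups of genes overlapped between genotypes, and the pore-forming voltage-gated potassium channels did not. That family summed to 8.56, 9.59 and 11.4 CPM in KO 1 to KO 3 and to 15.4, 14.6 and 16.7 in WT 1 to WT 3. Its log2 ratio of KO over WT was -0.66, and without Kcna2, its most abundant member, the ratio was 0.03. P2X receptors summed to 684 ± 34.8 CPM in KO and 684 ± 42.4 in WT (SD, n = 3), and CLC genes to 540 ± 26.7 CPM and 519 ± 21.6 CPM. TRP channels stood at 366 ± 25.8 CPM in KO and 371 ± 18.5 in WT (SD, n = 3). The other groups ranged in log2 ratio from -0.54 for the HCN channels, which together had 2.12 ± 0.657 CPM in KO and 3.08 ± 0.320 in WT (SD, n = 3), to 0.08 for the calcium-activated potassium channels. A sum follows its most abundant member, which took between 38.6% of the family for Orai1 and 97.7% for Kcnab2 in families of more than 1 gene.

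**Figure D3:**
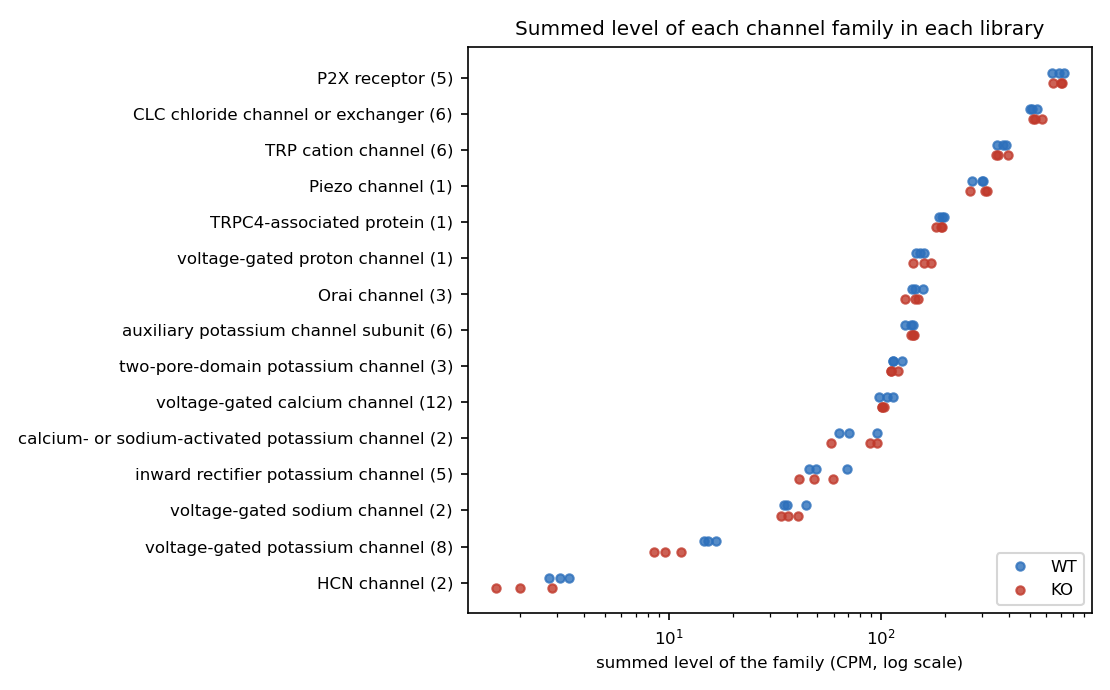
Summed level of the kept genes of each family in each library, on a log axis, with the number of genes in brackets, WT in blue and KO in red. The voltage-gated potassium channels are the family whose KO points (8.56 to 11.4 CPM) all lie below the WT points (14.6 to 16.7 CPM).

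Kcna2 encodes a delayed rectifier subunit of the Shaker type, known best from axons. It lies on chromosome 3 (107090883 to 107115005, mm10). Its level was 1.62, 3.53 and 2.28 CPM in KO 1 to KO 3 and 7.97, 7.86 and 9.16 in WT 1 to WT 3, from 61, 140 and 93 counts and from 294, 313 and 376 counts. The KO libraries lay below the WT libraries without overlap, and KO 2 stood highest among the KO libraries. The KO mean was 29.7% of the WT mean, and the log2 fold change of -1.75 (SE 0.26) had a 95% interval from -2.32 to -1.18 (adjusted p in edgeR 0.0759). Log2 fold changes in the 15 alternatives ran from -2.09 to -1.52. Since the genotypes did not overlap, leaving out libraries could not reverse the direction, so its constancy adds no support. The adjusted p ran from 6.46e-08 in DESeq2 to 0.861 without KO 3. Kcna2 passed in 6 of the 15, among them edgeR on unfiltered genes (adjusted p = 0.00455) and fits that left out KO 1 (0.0472), KO 2 (0.0304) or the pair of KO 1 and WT 2 (0.0281). It did not pass without KO 3 or without any single WT library. In bulk RNA, fewer cells with the transcript and less transcript per cell cannot be told apart.

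Kcna3, the neighbouring Shaker-type gene and the one best known from lymphocytes and macrophages, ends 52.8 kilobases before Kcna2. Its level was 3.39, 2.34 and 3.45 CPM in KO and 2.95, 3.44 and 2.31 in WT, and the genotypes overlapped throughout. Its log2 fold change was 0.08 with a 95% interval from -0.49 to 0.65. Within 250 kilobases of Kcna2 the table held 5 genes, of which 3 were tested. Their log2 fold changes lay between -0.08 and 0.08. Of these, 0 of 3 had an unadjusted p under 0.05, against 3.1% of all tested genes, and 3 genes are too few to differ from that share. None of the annotated exons of Kcna2, Kcnj10, Trpc6 or Cacna1c overlaps an exon of another gene in GENCODE.

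The stretches before the annotated starts of Kcna2, its neighbour Kcna3 and Kcnj10 are shown to set the letters of a gene low in KO beside those of a neighbour that overlapped (RefSeq, GRCm38.p6, plus strand). The stretch of Kcna2 is 172 bases, since 78 bases of the window lie in an exon of another Kcna2 transcript, and RefSeq models of the gene begin further upstream. In all, 4 motifs were searched on both strands: the TATA box as TATAAA, the GC box as GGGCGG, the AP-1 site as TGANTCA and a site of the PU.1 type as GAGGAA. They lie at chr3:107101395-107101566 for Kcna2, chr3:107035912-107036161 for Kcna3 and chr1:172340960-172341209 for Kcnj10. Capitals mark every match on either strand.
Kcna2: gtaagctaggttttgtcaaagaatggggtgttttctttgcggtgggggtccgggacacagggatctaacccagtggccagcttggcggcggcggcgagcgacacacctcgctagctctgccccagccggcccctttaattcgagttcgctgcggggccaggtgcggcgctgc
Kcna3: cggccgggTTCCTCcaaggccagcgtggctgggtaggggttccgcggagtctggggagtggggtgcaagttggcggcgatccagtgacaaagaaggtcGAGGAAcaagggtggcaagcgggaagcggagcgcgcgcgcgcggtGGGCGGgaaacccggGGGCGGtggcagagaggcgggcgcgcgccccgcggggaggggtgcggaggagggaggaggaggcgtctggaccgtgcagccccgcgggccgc
Kcnj10: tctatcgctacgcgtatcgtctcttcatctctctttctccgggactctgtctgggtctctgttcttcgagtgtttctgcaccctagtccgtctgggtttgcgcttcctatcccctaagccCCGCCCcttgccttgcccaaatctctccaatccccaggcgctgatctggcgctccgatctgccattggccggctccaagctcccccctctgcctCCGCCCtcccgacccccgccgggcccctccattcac
In these letters Kcna3 held 2 GC boxes and 2 sites of the PU.1 type, Kcnj10 held 2 GC boxes, and Kcna2 held 0 matches to any of the 4 motifs. Of 32851 windows of 250 bases before annotated starts, 32.7% held the GC box, 23.3% the PU.1 type, 12.4% the TATA box and 6.75% the AP-1 site. The Kcna2 stretch of 172 bases is shorter than these windows, so its 0 matches are not directly comparable with those shares or with the other 2 genes. All 3 stretches were rich in G and C, at 63.4% for Kcna2, 74.4% for Kcna3 and 62.0% for Kcnj10, where the median window had 52.4%. A match is a description of the letters only.

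Other pore-forming voltage-gated potassium channel genes were near the limit of measurement. Kcnq1, which forms slow channels with Kcne subunits, had 0.292, 0.277 and 0.881 CPM in KO and 0.759, 0.703 and 0.852 in WT. KO 3 lay with the WT libraries, and the 95% interval of its log2 fold change of -0.67 ran from -1.86 to 0.53. Kcng2, a silent subunit gene, had 0.92 with an interval from -0.45 to 2.29, Kcnh4 had -0.56 and Kcnd1 -0.18, all with intervals across 0. Kcng3, with 61 counts in all, did not pass the filter on low counts and was not tested.

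The inward rectifiers, which hold the membrane near the potassium equilibrium, held the gene with the next smallest p. Kcnj10, known from glia, had 2.84, 3.27 and 3.28 CPM in KO and 4.45, 6.58 and 6.94 in WT (chromosome 1, 172341210 to 172374085). The genotypes did not overlap, and WT 1 lay nearest to KO. The KO mean was 52.3% of the WT mean, and the log2 fold change of -0.94 (SE 0.22) had a 95% interval from -1.42 to -0.45 (adjusted p in edgeR 0.973). It did not pass in any of 15 alternatives, and the lowest adjusted p was 0.0656 in DESeq2. Kcnj16, whose product is known to pair with that of Kcnj10, had 0.371, 0.302 and 0.294 CPM in KO and 0.379, 0.628 and 0.390 in WT. Its KO values also lay below its WT values, but KO 1 and WT 1 were close together and the 95% interval ran from -1.67 to 0.62. Kcnj9, which lies 11.9 kilobases from Kcnj10, had a log2 fold change of -0.06 with an interval from -0.85 to 0.72. The 14 tested genes within 250 kilobases of Kcnj10 had log2 fold changes from -0.37 to 0.86. Of these 14, 0 had an unadjusted p under 0.05, against 3.1% of all tested genes, and 14 genes are too few to differ from that share.

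Kcnj2, the classical inward rectifier of macrophages, was the main member of its family and its libraries overlapped between genotypes. It stood at 35.6, 41.9 and 52.1 CPM in KO and at 42.6, 35.7 and 58.8 in WT, a log2 fold change of -0.08 with an interval from -0.63 to 0.47. Kcnj5 had 0.954, 2.17 and 2.11 CPM in KO and 0.759, 1.61 and 1.31 in WT, with overlap and an interval from -0.41 to 1.42.

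Kcnn4, the calcium-activated potassium channel gene of macrophages and lymphocytes, also overlapped. Its level was 56.4, 86.5 and 94.3 CPM in KO and 67.8, 60.8 and 94.6 in WT, with a log2 fold change of 0.09 and an interval from -0.58 to 0.76. Among the 26 tested channel genes at 10 CPM or more, Kcnn4 and Kcnj2 had the highest ratios of highest to lowest library, at 1.68 and 1.65. KO 1 and WT 2 were the lowest 2 libraries for both genes. In the same 2 libraries the 9 neutrophil markers summed to 1611 and 1624 CPM, against 2088 to 2959 CPM in the other libraries, and the 7 mast cell, basophil and eosinophil markers in the table summed to 24.6 and 24.9 CPM against 30.8 to 58.8 CPM. The 9 stromal and endothelial markers were also lowest there, at 106 and 104 CPM against 152 to 238 CPM. Without KO 1 and WT 2 together the log2 fold changes were 0.15 for Kcnn4 and -0.11 for Kcnj2, and the part of such cells in the levels of Kcnn4 and Kcnj2 was not tested. Kcnn1, a small-conductance channel gene, had 1.81 ± 0.276 CPM in KO and 2.25 ± 0.707 in WT (SD, n = 3).

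Two-pore-domain channels, which carry background potassium current, were measured with narrow intervals. Kcnk6, known to carry potassium efflux in macrophages, had 83.8, 76.7 and 71.7 CPM in KO and 83.3, 87.9 and 77.4 in WT, with an interval of the log2 fold change from -0.26 to 0.07. Kcnk13, known from microglia, had an interval from -0.13 to 0.28. Kcnk12, a close relative that often stays silent at the membrane, had 2.83 ± 0.232 CPM in KO and 2.94 ± 0.457 in WT (SD, n = 3). The 3 intervals lay inside 1.5-fold.

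Of the auxiliary subunits, Kcnab2, the cytoplasmic beta subunit of Shaker-type channels, was expressed far above the pore-forming genes of that type when set per kilobase, at 24.3 against 1.57 CPM per kilobase for Kcna3 and 0.454 for Kcna2. Its level was 141, 135 and 137 CPM in KO and 138, 126 and 135 in WT, and the interval of its log2 fold change ran from -0.07 to 0.17. Kcne3, Kcnab3 and Kcnip3 had log2 fold changes of -0.20, 0.28 and -0.38 with intervals that crossed 0 widely. Kcnab1 had 0.08, and Kcnmb1, with 69 counts in all, was not tested.

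**Figure D4:**
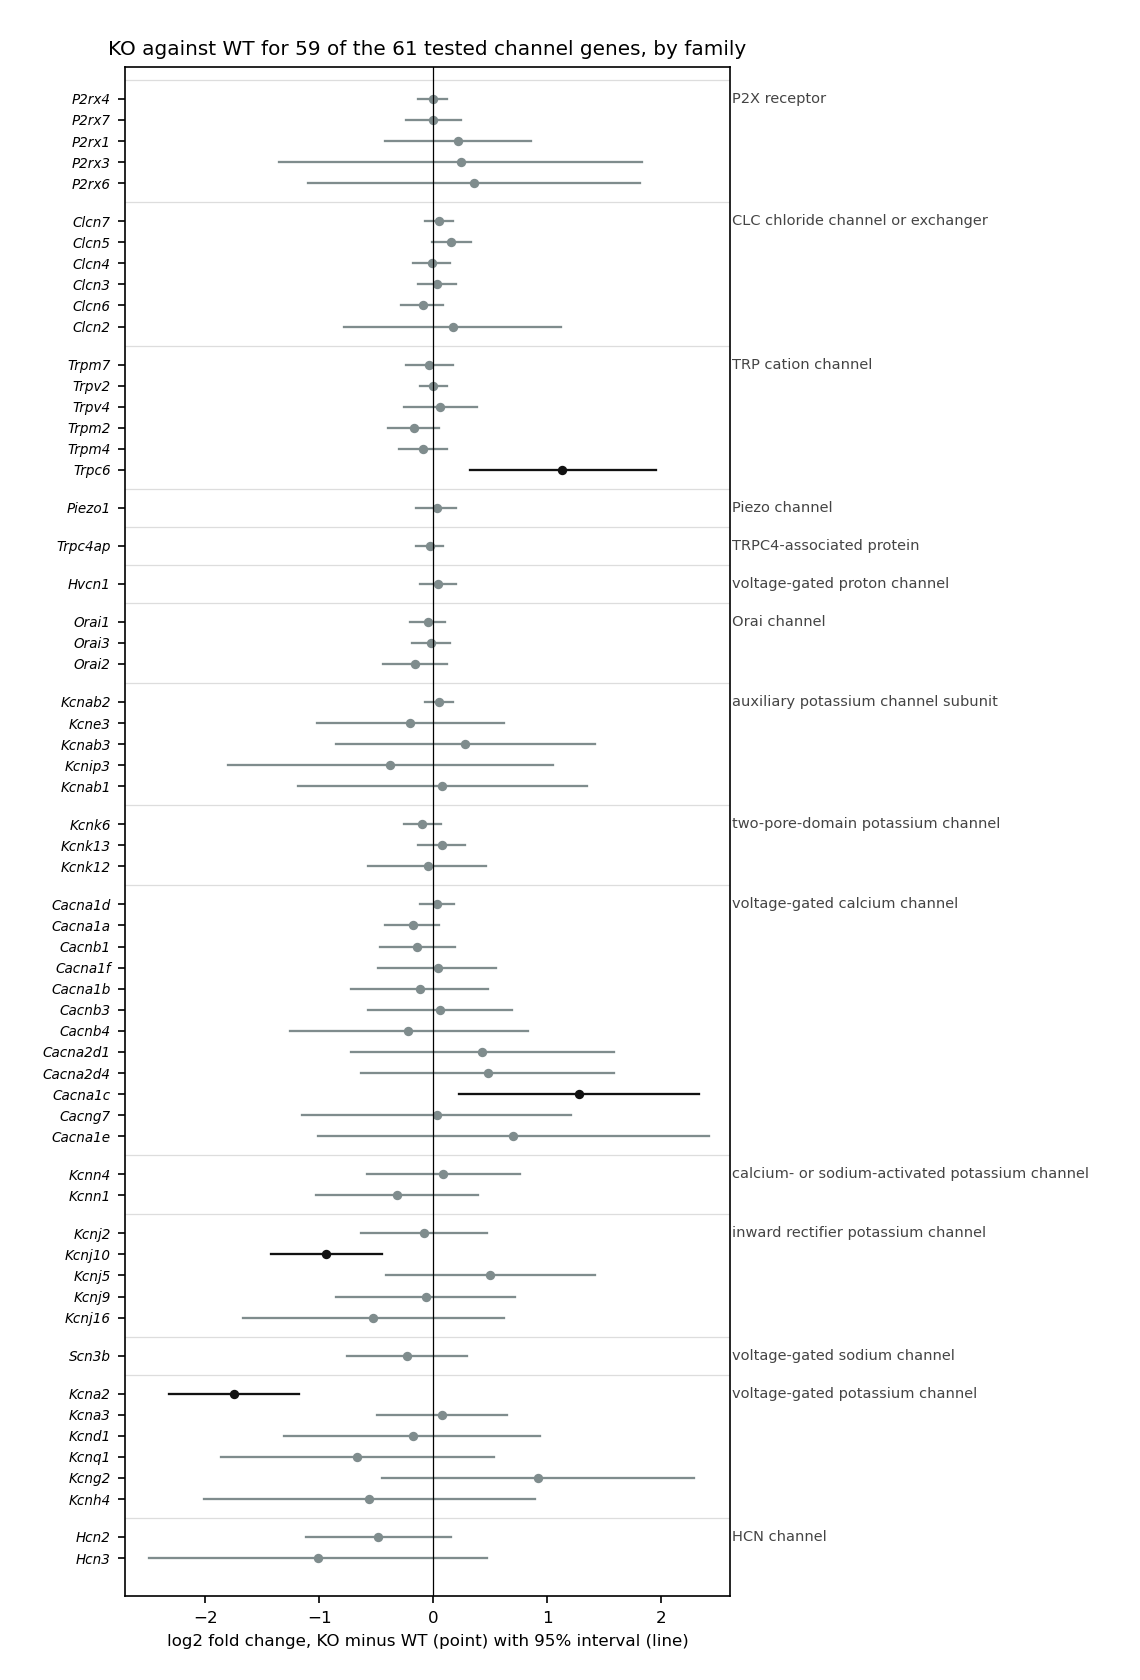
Log2 fold change of KO minus WT for 59 of the 61 tested channel genes, ordered by family and by level within a family, with 95% intervals as lines. Black marks the 4 genes with an unadjusted p under 0.05, and the intervals of the abundant P2rx4, Clcn7 and Trpv2 all lie between -0.13 and 0.17.

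Among cation channels of the TRP type, the 5 abundant genes were measured with narrow intervals and the scarcest one had higher values in KO. Trpm7, a channel fused to a kinase, Trpv2, Trpv4, which responds to swelling, Trpm2, which opens on oxidative stress, and Trpm4, activated by calcium, had log2 fold changes between -0.17 and 0.06, all with intervals within 1.5-fold. Trpm2 had 20.6, 27.1 and 25.1 CPM in KO and 27.9, 27.0 and 27.2 in WT, so that KO 1 was the lowest library, KO 3 also lay below the WT libraries and KO 2 lay among them. Trpc6, opened by diacylglycerol, had 1.22, 1.81 and 2.18 CPM in KO and 0.840, 0.879 and 0.657 in WT, from 46, 72 and 89 counts and from 31, 35 and 27 counts. The genotypes did not overlap. Trpc6 (chromosome 9, 8543867 to 8680752) had a log2 fold change of 1.13 (SE 0.37, edgeR adjusted p = 1.0). Trpc4ap matches the name rule but encodes a ubiquitin ligase adaptor and no channel; it had 189 ± 6.64 CPM in KO and 193 ± 5.53 in WT (SD, n = 3).

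Voltage-gated calcium channels showed the same division by level. Cacna1d, a pore subunit of the L type, had 41.8, 42.7 and 44.0 CPM in KO and 39.7, 43.0 and 43.1 in WT, and Cacna1a, a pore subunit of the P/Q type, had 37.7 ± 1.74 CPM and 42.9 ± 6.75 CPM (SD, n = 3). Exons of Cacna1d overlap those of Chdh on the opposite strand, and no source used here says whether reads were counted by strand. In all, 24 of the 63 channel genes share exonic positions with another annotated gene, among them Kcnq1 with Kcnq1ot1 and Hcn3 with Pklr. Cacna1c, an L-type gene of heart and smooth muscle, had 1.11, 0.680 and 0.685 CPM in KO and 0.298, 0.327 and 0.390 in WT, from 42, 27 and 28 counts and from 11, 13 and 16 counts. The KO values lay above the WT values in every library. Cacna1c (chromosome 6, 118587240 to 119197384, minus strand) had a log2 fold change of 1.28 (SE 0.48, edgeR adjusted p = 1.0). Cacna2d4 had 0.48, Cacnb1 -0.14 and Cacna1f 0.04, and the other 6 calcium channel genes lay between -0.22 for Cacnb4 and 0.70 for Cacna1e, with intervals across 0.

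**Figure D5:**
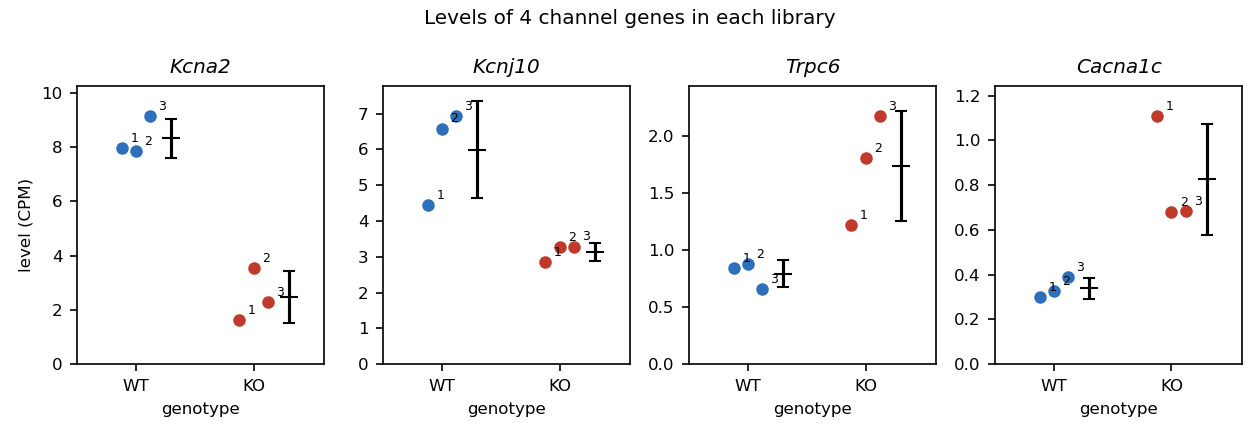
Level of Kcna2, Kcnj10, Trpc6 and Cacna1c in each library, numbered by replicate, with the mean and SD of each genotype as a black bar and each axis starting at 0. Kcna2 and Kcnj10 lie lower in each KO library, Trpc6 and Cacna1c higher, and the scale falls from 9.16 CPM for the highest Kcna2 value to 1.11 CPM for the highest Cacna1c value.

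KO and WT did not overlap for 5 of 61 tested members (8.20%), against 8.65% of all tested genes, with 3 lower in KO (Kcna2, Kcnj10 and Kcnj16, against 4.59% of all tested genes) and 2 higher (Trpc6 and Cacna1c, against 4.05%). Since Kcna2, Kcnj10, Trpc6 and Cacna1c are also made by cells other than macrophages, the markers of such cells were set beside them. The 9 neuron and glia markers summed to between 42.9 and 48.9 CPM in KO and between 48.4 and 59.7 CPM in WT, mostly through Mbp. The defining neuronal gene Rbfox3 was at 0.126 CPM or less and the glial Olig2 at 0.0487 CPM or less in each library. The 9 stromal and endothelial markers summed to between 106 and 238 CPM in KO and between 104 and 160 CPM in WT. The 9 megakaryocyte and erythroid markers summed to between 173 and 200 CPM in KO and between 153 and 157 CPM in WT, without overlap. Of their 6 tested members 0 passed, against 0.0317% of all tested genes. An unadjusted p under 0.05 was found for 2 of the 6, both higher in KO, against 3.1% of all tested genes. Whether these cells had a part in the 4 genes was not tested.

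The P2X receptors of macrophages were held closely. P2rx4 had 425, 453 and 416 CPM in KO and 440, 442 and 417 in WT, with an interval from -0.13 to 0.12. P2rx7, 15.2 kilobases away on chromosome 5, had 281, 240 and 225 CPM in KO and 248, 278 and 219 in WT, with an interval from -0.24 to 0.24. Differences beyond 1.5-fold lie outside both intervals. P2rx1, P2rx3 and P2rx6 had 2.98, 0.538 and 0.313 CPM in KO, and their log2 fold changes of 0.22, 0.24 and 0.36 had intervals that crossed 0. Exons of P2rx3 and P2rx6 overlap those of Ssrp1 and Slc7a4 on the opposite strand.

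Organelle and store-operated channels gave the same picture. Clcn7 had 252 ± 7.93 CPM in KO and 243 ± 8.67 in WT, and Clcn5, an endosomal exchanger, had 138, 120 and 131 CPM in KO and 114, 129 and 106 in WT. Clcn5 had the smallest p of its family, with a log2 fold change of 0.16 and an interval from -0.01 to 0.33, and the genotypes overlapped. Clcn3, Clcn4 and Clcn6, exchangers of endosomes and late endosomes, had 0.03, -0.01 and -0.09, and Clcn2, a plasma membrane channel gene, 0.17 at 0.633 to 1.25 CPM. Hvcn1, which balances the charge moved by the NADPH oxidase, had 141, 171 and 160 CPM in KO and 152, 146 and 160 in WT. Orai1, Orai2 and Orai3, the pores of store-operated calcium entry, had -0.05, -0.16 and -0.02, each with an interval within 1.5-fold. Piezo1 had 261, 315 and 307 CPM in KO and 301, 268 and 299 in WT, with an interval from -0.15 to 0.20. Exons of Hvcn1 and Piezo1 overlap those of Tctn1 and Ctu2 on the opposite strand.

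Sodium and HCN channel genes were few. Scn3b, an auxiliary subunit gene, had 3.26 ± 0.284 CPM in KO and 3.83 ± 0.990 in WT (SD, n = 3). No pore-forming sodium channel gene reached the minimum. Hcn2, which carries pacemaker current in heart and neurons, had 2.47, 1.86 and 1.44 CPM in KO and 2.63, 3.14 and 2.26 in WT, so that KO 1 lay among the WT libraries. Its log2 fold change was -0.48 with an interval from -1.12 to 0.16, and Hcn3 had -1.01 with an interval from -2.49 to 0.47 at 0.487 CPM or less.

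Genes that work with these channels were read from the same fit. Of 24 tested partners of calcium release and store-operated entry, 0 passed and 1 had an unadjusted p under 0.05, where over all tested genes 0.0317% passed and 3.1% had such a p, shares that stand beside each of the lists here. That was Atp2a2, the pump that fills the endoplasmic reticulum, at 265 ± 1.76 CPM in KO and 242 ± 6.34 in WT (SD, n = 3; log2 fold change 0.13), followed by Mcoln3 with -0.59 and Mcu with 0.17. Of 23 tested chloride, volume and other channel genes outside the name rule, 0 passed and 0 had an unadjusted p under 0.05; Aqp1, Ostm1, the partner subunit of Clcn7, and Ano6 had 0.79, 0.08 and 0.06. Of 22 tested genes of sodium, potassium and proton transport 0 passed and 0 had an unadjusted p under 0.05, with Slc12a2 at -0.16 and Stk39 at -0.36. Of 9 genes of potassium efflux and the inflammasome 0 passed and 1, Il18, had an unadjusted p under 0.05, with -0.39; Il1b had -0.44 and Casp4 -0.13. Medians of these 4 lists lay between -0.01 and 0.06, where the median of all tested genes was 0.00.

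Partners of Shaker-type channels held 11 tested genes, of which 0 passed and 1 had an unadjusted p under 0.05 (over all tested genes, 0.0317% and 3.1%). That gene was Epb41l3, which encodes a membrane scaffold of the protein 4.1 family known from the axonal region that holds Kcna2 channels. It stood at 12.9 ± 2.95 CPM in KO and 20.8 ± 1.41 in WT (SD, n = 3), and its log2 fold change was -0.69 (SE 0.15, edgeR adjusted p = 0.768). Dlg2 and Ank3, scaffold genes as well, had higher mean values in KO, at 1.18 ± 0.473 against 0.631 ± 0.143 CPM and at 0.702 ± 0.356 against 0.296 ± 0.219 CPM (SD, n = 3), and neither had an unadjusted p under 0.05. The median of the list was 0.01.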

How the data were processed

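For 6 libraries the authors deposited raw counts of reads by gene in 1 table. RNA was extracted with TRIzol and libraries came from the VAHTS Universal V6 kit (labels' protocols). The tools were fastp, HISAT2 and HTSeq and the build mm10, per the submitters' processing notes. Versions, annotation and strand setting are stated in none of the sources used here. Without a known strand, reads of overlapping genes are not resolved.

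The channel genes, the gene lists and the tests were chosen with earlier results of these data known. The test was edgeR 4.0.16 (R 4.3.3) with TMM factors, filterByExpr (12605 genes kept), robust quasi-likelihood fits and Benjamini-Hochberg adjustment over all tested genes at 0.05; 2 of the 63 channel genes, Kcng3 and Kcnmb1, did not pass the filter. Standard errors (SE) were taken from the log2 fold change and the F statistic, and 95% intervals from those. The pipeline was tested on simulated data in which every gene had the same dispersion, so that test does not cover genes with wider spread. DESeq2 1.42.0 and limma 3.58.1 (voom) were alternatives, with other normalizations and filters and leaving out libraries. Lengths and overlaps came from GENCODE M21, coordinates from RefSeq GRCm38.p6, matched by Entrez ID for all 63. Pairs of replicates differed by 11.4 to 34.2 chi-square per degree of freedom, more than sampling noise. Named genes were Trmt61a, Kcna2, up to 4 most abundant and up to 4 of smallest p per family, and up to 3 of smallest p per list; others were named after their values were seen. Marker lists were macrophage, neutrophil, mast cell, basophil and eosinophil, stromal, lymphocyte, neuron and glia, megakaryocyte and erythroid, and dendritic cell; the 9 lymphocyte markers summed to 78.4 to 96.1 CPM and the 5 dendritic cell markers in the table to 3.10 to 3.87 CPM. A few genes are not reported here one by one; counts and family sums include them.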

Additional observations from a re-analysis of the deposited data

How the results depend on the processing

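The count of channel genes past the threshold was 0 in edgeR and 1 (Kcna2 each time) with no low-count filter, in DESeq2, with the replicate number as a block and, added after the data were seen, without KO 1 and WT 2 together; leaving out 1 library at a time gave 0 to 1. The count over all genes was 4, and became 16 in DESeq2 and 8 with the replicate block, in which Kcna2 had -1.80 (adjusted p = 0.0434). No pairing by replicate number is stated. Deviations of same-numbered libraries from their group means correlated at 0.032, -0.128 and 0.246, and KO 1 correlated best with WT 2 (0.301). With 3 libraries per mean these deviations depend on each other, so they cannot decide whether libraries were paired. The block is therefore given here only. The median log2 fold change of the channel genes, -0.005, lay between -0.037 and 0.008 in all alternatives, including minimum sums of 30 and 120 counts. The log2 ratios of summed families moved by more than the spread between libraries when the most abundant member was left out: to 0.029 for voltage-gated potassium, -1.011 for HCN, -0.075 for auxiliary potassium, -0.319 for calcium-activated potassium, -0.478 for inward rectifier, 0.065 for two-pore-domain and -0.231 for sodium channels, by the construction of that alternative. Families of 1 gene have no such value, and Cacna1c was not tested under the stricter low-count filter.

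Of the 52 genes followed through the alternatives, 26 changed sign in at least 1, none of them past the threshold in any fit; the cause was not tested. Leaving out 1 library gave the log2 fold changes -0.01 to 0.05 for Cacna1d, -0.12 to 0.19 for Cacna1f, -0.04 to 0.10 for Clcn3, -0.09 to 0.03 for Clcn4, -0.02 to 0.11 for Hvcn1, -0.06 to 0.24 for Kcna3, -0.65 to 0.17 for Kcnd1, -0.41 to 0.07 for Kcne3, -0.74 to 0.17 for Kcnip3, -0.24 to 0.14 for Kcnj2, -0.19 to 0.12 for Kcnj9, -0.18 to 0.02 for Kcnk12, -0.00 to 0.13 for Kcnk13, -0.06 to 0.30 for Kcnn4, -0.08 to 0.01 for Orai1, -0.07 to 0.05 for Orai3, -0.09 to 0.44 for P2rx1, -0.21 to 1.08 for P2rx3, -0.04 to 0.02 for P2rx4, -0.04 to 0.69 for P2rx6, -0.10 to 0.09 for P2rx7, -0.03 to 0.10 for Piezo1, -0.15 to 0.02 for Trpm7, -0.02 to 0.02 for Trpv2 and -0.08 to 0.18 for Trpv4. Without KO 1 and WT 2 together Clcn3 had -0.04, Kcnab2 -0.00, Kcnd1 0.04, Kcnk12 0.03, Orai3 0.02, P2rx4 0.02, P2rx7 -0.01, Trpv2 0.02 and Trpv4 -0.06. P2rx7 had -0.01 with upper-quartile factors and -0.00 under the stricter filter, and Trpv2 0.00 without a filter. For the channel genes under 1 CPM, 0 of 17 intervals lay within 2-fold, against 1.43% of all tested genes at that level. The parts of depth and of the spread between libraries in these wide intervals were not tested.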
